A study of Mus musculus with 14 samples.

Results

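Hepatic genes of the urea cycle and of amino acid breakdown were examined in bulk liver RNA-seq from mice fed high-AGE, fast-food or regular diets. The set holds 44 genes, a list chosen by gene name for the urea cycle and its carriers, the breakdown of tyrosine, tryptophan, lysine, proline and branched-chain amino acids, the methionine cycle, glycine and serine turnover, aminotransferases and cysteine oxidation. All 44 were found among the 55427 genes of the table. Of these members, 43 passed the filter on low values and stood among the 12110 genes tested, and Bckdhb, at 0.294 to 0.892 scaled FPKM, did not. The study asked what advanced glycation end-products (AGEs), sugar adducts on proteins, do to the pre-cirrhotic liver, and the libraries compare diets, an inhibitor of AGE formation and a deletion of the AGE receptor RAGE (gene Ager).

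There were 14 libraries in 5 groups. The HiAD + PM group (2 libraries, replicates 18 and 19) were RAGE flox mice on the high-AGE diet (HiAD) given pyridoxamine (PM), a vitamin B6 form that inhibits AGE formation, at 60 mg per kg by daily intraperitoneal injection starting in week 5. The RageHepKO group (3 libraries, replicates 19, 20 and 21) were labelled RAGE flox/Alb cre and ate HiAD. The HiAD group (3 libraries, replicates 1 to 3) were RAGE flox mice on HiAD, which is the fast-food diet after cooking, also given with fructose-rich water, and according to the methods received the PM vehicle. The FFD group (3 libraries, replicates 28, 31 and 32) were RAGE flox mice on the uncooked fast-food diet with fructose-rich drinking water. The chow group (3 libraries, replicates 1 to 3) were RAGE flox mice on regular diet. Sample titles carry the letter B before the number in HiAD, RA in RageHepKO and R in the other groups. What these letters stand for is not stated in the sources used here. Diets lasted 14 weeks, and the methods give male mice of 8 to 10 weeks of age at the start. All groups thus carry the floxed Ager allele, and the HiAD libraries serve as the comparison group for both PM and RageHepKO, so that these comparisons are not independent of each other or of HiAD against FFD and chow. Albumin drives Cre in hepatocytes, while RNA came from whole liver, in which cells without Cre keep the gene. RNA came from snap-frozen tissue, and each library is taken as 1 mouse, so that p-values measure the spread between these libraries.

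The liver is the main site where amino acid nitrogen is turned into urea. Aminotransferases, which use pyridoxal phosphate (the active form of vitamin B6), pass amino groups to glutamate and aspartate, and the urea cycle joins ammonia and aspartate nitrogen into urea through CPS1, OTC, ASS1, ASL and ARG1. The carbon skeletons are broken down along separate routes. Hepatocytes degrade tryptophan through kynurenine, a route that begins with TDO2 and leads by KMO, KYNU and HAAO towards NAD, and they turn methionine into S-adenosylmethionine, the methyl donor, through MAT1A. Many of these genes are known to be induced by glucagon, cAMP and glucocorticoids during fasting.

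Promoters are shown for Kmo and Haao, the members with calls in the most comparisons and both of the kynurenine route, and for Gpt2, a member that moved the other way under PM and in RageHepKO. The windows are sequences of GRCm38.p6 from 250 bases before to 50 bases after a RefSeq start site, written on the strand of the gene. Capitals mark TGTTCT, a core of the glucocorticoid receptor element, searched on both strands. The Kmo window lies at chr1:175631943-175632242 (plus strand), the Haao window at chr17:83846741-83847040 (minus strand) and the Gpt2 window at chr8:85492326-85492625 (plus strand). The Kmo and Haao windows lie inside the gene positions given below, which come from the GENCODE annotation and begin farther upstream. For these genes the RefSeq start shown is thus not the outermost annotated start.
Kmo: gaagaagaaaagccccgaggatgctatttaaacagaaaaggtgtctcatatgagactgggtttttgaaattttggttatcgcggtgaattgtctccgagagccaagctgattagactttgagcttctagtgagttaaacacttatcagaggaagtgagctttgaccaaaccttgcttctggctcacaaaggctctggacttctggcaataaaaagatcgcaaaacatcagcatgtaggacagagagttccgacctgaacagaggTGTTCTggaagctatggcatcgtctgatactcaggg
Haao: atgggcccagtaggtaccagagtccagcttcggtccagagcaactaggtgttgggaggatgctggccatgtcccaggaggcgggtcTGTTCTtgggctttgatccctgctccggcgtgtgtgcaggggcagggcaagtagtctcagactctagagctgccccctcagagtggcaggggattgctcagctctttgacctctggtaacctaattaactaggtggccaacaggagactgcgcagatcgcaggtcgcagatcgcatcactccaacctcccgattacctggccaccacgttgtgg
Gpt2: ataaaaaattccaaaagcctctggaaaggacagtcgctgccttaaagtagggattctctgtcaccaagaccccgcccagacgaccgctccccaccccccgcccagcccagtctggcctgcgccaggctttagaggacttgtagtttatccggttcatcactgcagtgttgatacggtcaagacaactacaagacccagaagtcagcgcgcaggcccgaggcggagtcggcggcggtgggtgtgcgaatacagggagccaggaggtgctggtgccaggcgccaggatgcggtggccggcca
Of the members, 36 had a promoter in the table, with 39 windows in all. TGTTCT stood in 3 of the 39 windows (7.69%, those of Kmo, Haao and Bckdhb), against 19% of all 32851 promoter windows of this length. None of the 39 windows held TGACGTCA (the cAMP response element, in 1.79% of all windows), TTGCGCAA (a C/EBP element, 0.183%) or CAAAGTCCA (an HNF4 element, 0.475%). These counts describe letters in short windows and carry no test.

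The values are FPKM (fragments per kilobase of exon, per library total), rescaled between libraries and called scaled FPKM here. Steps in the low values would correspond to 7880000 to 11700000 fragments per library if each step is 1 fragment, which is an estimate. On that estimate every called member rested on at least 208 fragments in each library. The hepatocyte marker list (9 of 10 genes tested, Alb and Apob among them) summed to 17240 to 37250 scaled FPKM over the 14 libraries, and pancreas and muscle markers to at most 3.48. Mitochondrially encoded genes took 14.5 to 16.8% of the summed FPKM in HiAD + PM, 24.3 to 53.1% in RageHepKO, 14.1 to 22.1% in HiAD, 6.06 to 10.1% in FFD and 13.1 to 24.1% in chow. The highest share belonged to RageHepKO replicate 19, which held the highest value of the 14 libraries in 11 members and the lowest in 8. Chow replicate 2 held the highest value in 16 of the 44 members. Highest and lowest libraries were not counted over all genes, so these counts do not set the members apart from other genes. Values without these libraries are given beside several of the results that rest on them.

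Ager, the targeted gene, checks the genotype labels. It had 0.198, 1.9 and 1.83 scaled FPKM in RageHepKO replicates 19, 20 and 21, against 0.184, 0.081 and 0.14 in HiAD replicates 1 to 3. It had 2.75 and 2.49 in HiAD + PM, 2.78, 2.68 and 2.47 in FFD and 1.71, 2.15 and 0.801 in chow. The libraries labelled RageHepKO were thus not lower than their HiAD comparison libraries, which had the lowest Ager levels of the 5 groups. RageHepKO below therefore stands for the libraries labelled so, and each direction given for it is one between libraries labelled RageHepKO and libraries labelled HiAD. The same caution holds for the 3 libraries labelled HiAD, with their low Ager despite an intact hepatocyte allele by label, in the comparisons with PM, FFD and chow.

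Few members passed the test in the diet comparisons and more in the comparisons with PM and RageHepKO. Calls among all tested genes differed between the comparisons in the same way. In HiAD + PM against HiAD, 2 of 43 members were higher and 4 lower, where 3.31% of all tested genes were higher and 3.14% lower. In RageHepKO against HiAD, 6 members were higher and 6 lower, where 15.7% of all tested genes were higher and 17.7% lower. In HiAD against FFD no member was higher and 1 was lower, where 1.66% and 1.45% of all tested genes were higher and lower. In HiAD against chow none was higher and 2 were lower, where 2.81% and 1.82% of all tested genes were higher and lower. In FFD against chow no member passed, and 0.00826% of all genes were higher and 0.0578% lower. Calls are limma tests at an adjusted p under 0.05 over all tested genes, and fold changes are differences of log2(scaled FPKM + 1), which understate the change of low genes, given ± SE. Median log2 fold changes of the members were -0.15 with PM (all genes 0.01), -0.36 with RageHepKO (all genes -0.000665), 0.27 for HiAD against FFD (0.02), -0.12 for HiAD against chow (-0.02) and -0.27 for FFD against chow (-0.02).

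**Figure D1:**
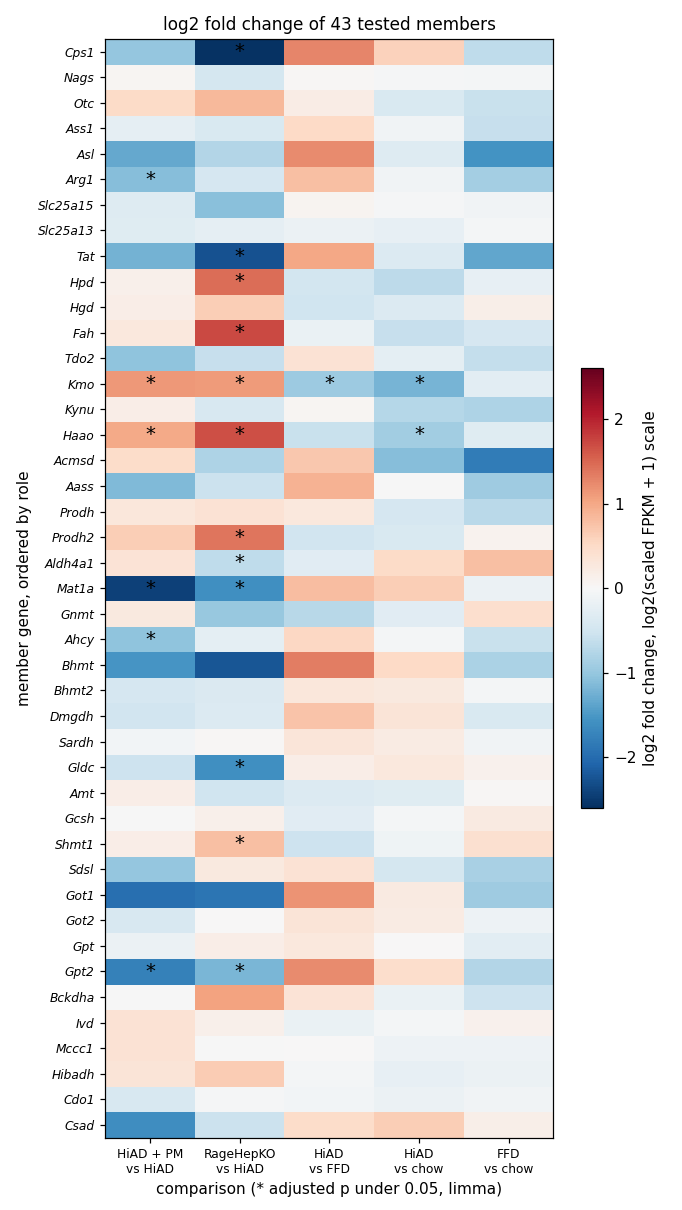
Heat map of the log2 fold change on the log2(scaled FPKM + 1) scale for the 43 tested members, in rows by role, in the 5 comparisons as columns; red is higher and blue lower in the group named first, and an asterisk marks an adjusted p under 0.05 by limma. Kmo carries a mark in 4 columns and Haao in 3, and the column of FFD against chow carries none.

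Kmo was the only member called in HiAD against FFD, and with Haao it made up both calls in HiAD against chow. Kmo (chr1:175620381-175662116, GRCm38) encodes kynurenine 3-monooxygenase, which hydroxylates kynurenine. It had 33.2 and 30.9 scaled FPKM in HiAD + PM, 37.3, 31.8 and 26.6 in RageHepKO, 13.2, 17.4 and 12.3 in HiAD, 27.2, 29.9 and 27.1 in FFD and 30.1, 47.04 and 27.8 in chow. The 3 HiAD libraries were the lowest 3 of all 14, and no library of another group overlapped them. The log2 fold change was 1.12 ± 0.24, adjusted p = 0.0167 in HiAD + PM against HiAD, 1.10 ± 0.22, adjusted p = 0.00303 in RageHepKO against HiAD, -0.94 ± 0.22, adjusted p = 0.0359 in HiAD against FFD and -1.21 ± 0.22, adjusted p = 0.00797 in HiAD against chow. The FFD call was lost in 9 of 26 alternatives. These were the fit without HiAD replicate 1 (adjusted p = 0.116) or 3 (0.163), FFD replicate 28 (0.105), 31 (0.133) or 32 (0.0925) or either PM library (0.0612 each), the fit without the filter (0.081) and the one with the total of nuclear-encoded genes (0.0501), while the log2 fold change stayed between -1.08 and -0.85. The chow call was lost in a fit of chow and HiAD alone (0.0689). The PM call was lost without HiAD replicate 1 (0.0568) or 3 (0.0641) or PM replicate 18 (0.146) or 19 (0.135).

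Haao (chr17:83831156-83847963) encodes a later, ring-opening enzyme, 3-hydroxyanthranilate dioxygenase, whose product leads to quinolinate and NAD. It had 45.9 and 48.6 scaled FPKM in HiAD + PM, 90.9, 71.2 and 70.7 in RageHepKO, 24.02, 22.1 and 23.9 in HiAD, 44.1, 31.1 and 31.9 in FFD and 43.01, 39.5 and 51.3 in chow. Here too HiAD held the 3 lowest values, and RageHepKO the 3 highest. The log2 fold change was 0.99 ± 0.21, adjusted p = 0.015 in HiAD + PM against HiAD, 1.68 ± 0.19, adjusted p = 0.000212 in RageHepKO against HiAD, -0.57 ± 0.19, adjusted p = 0.133 in HiAD against FFD (not called) and -0.90 ± 0.19, adjusted p = 0.017 in HiAD against chow. The chow call was lost without HiAD replicate 1 (0.0501), 2 (0.0592) or 3 (0.0607) or chow replicate 3 (0.0689), and in a fit of chow and HiAD alone (0.0745). The PM call was lost without PM replicate 18 (0.109) or 19 (0.17). In RageHepKO neither the Kmo nor the Haao call was lost in any of 25 alternatives.

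The other 3 members of the route did not pass in any comparison. Tdo2, the first and rate-limiting step, had 172 and 139.7 scaled FPKM in HiAD + PM, 136, 331 and 210.1 in RageHepKO, 289.7, 298 and 389 in HiAD, 259, 229.8 and 264 in FFD and 359.6, 555 and 284 in chow. Its HiAD + PM libraries lay below all 3 HiAD libraries (-1.05 ± 0.36, adjusted p = 0.114), the opposite direction to Kmo and Haao. Kynu, which cleaves kynurenines with pyridoxal phosphate, ranged from 7.67 to 18.6 in all libraries but chow replicate 2, at 70.9. Acmsd, which diverts the route away from NAD synthesis, ranged from 0.82 to 4.73 in 13 libraries and stood at 83.4 in chow replicate 2.

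Other genes of aromatic amino acid and histidine breakdown came from a separate list of 14, all tested. With PM 4 were higher and none lower (3.31% and 3.14% of all tested genes), and with RageHepKO 4 higher and none lower (15.7% and 17.7%). In HiAD against FFD 2 were lower (1.45% of all tested genes) and in HiAD against chow 4 lower (1.82%). Ido2, which catalyses the same first step as Tdo2, had 26.3 and 26.8 scaled FPKM in HiAD + PM, 13.2, 8.18 and 8.1 in RageHepKO, 2.89, 4.67 and 3.65 in HiAD, 12.99, 12.8 and 10.8 in FFD and 17, 15.2 and 18.4 in chow. Its HiAD libraries were the lowest 3, and PM the highest 2. The log2 fold change was 2.56 ± 0.23, adjusted p = 6.16e-05 with PM, 1.18 ± 0.20, adjusted p = 0.00162 in RageHepKO, -1.49 ± 0.20, adjusted p = 0.00194 in HiAD against FFD and -1.93 ± 0.20, adjusted p = 0.000259 in HiAD against chow. Kyat1, a kynurenine aminotransferase, had 6.59 and 9.2 in HiAD + PM, 8.95, 7.24 and 12.7 in RageHepKO, 1.4, 2.09 and 1.51 in HiAD, 6.29, 4.5 and 4.06 in FFD and 6.31, 5.98 and 10.6 in chow, again with HiAD lowest. Its log2 fold change was 1.73 ± 0.28, adjusted p = 0.00357 with PM, 1.97 ± 0.25, adjusted p = 0.000408 in RageHepKO, -1.15 ± 0.25, adjusted p = 0.0287 against FFD and -1.66 ± 0.25, adjusted p = 0.00299 against chow. Aadat, another kynurenine aminotransferase, was lower in HiAD against chow (-1.03), and Qprt, which makes the NAD precursor from quinolinate, was higher with PM (0.79). Ftcd of histidine breakdown was higher in RageHepKO (1.70).

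Put together after the values were seen, 11 tested genes of the kynurenine route (the 5 members with Ido2, Afmid, Kyat1, Kyat3, Aadat and Qprt) gave 5 higher and none lower with PM, 4 higher and none lower in RageHepKO, 3 lower and none higher in HiAD against FFD, and 5 lower and none higher in HiAD against chow. Of all tested genes, 3.31% were higher and 3.14% lower with PM, and 15.7% and 17.7% in RageHepKO. The shares were 1.66% and 1.45% in HiAD against FFD and 2.81% and 1.82% in HiAD against chow. No test was made of this grouping. Afmid and Kyat3 passed in none of the comparisons. All 4 comparisons rest on the same 3 HiAD libraries, so that these directions are not independent of each other.

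**Figure D2:**
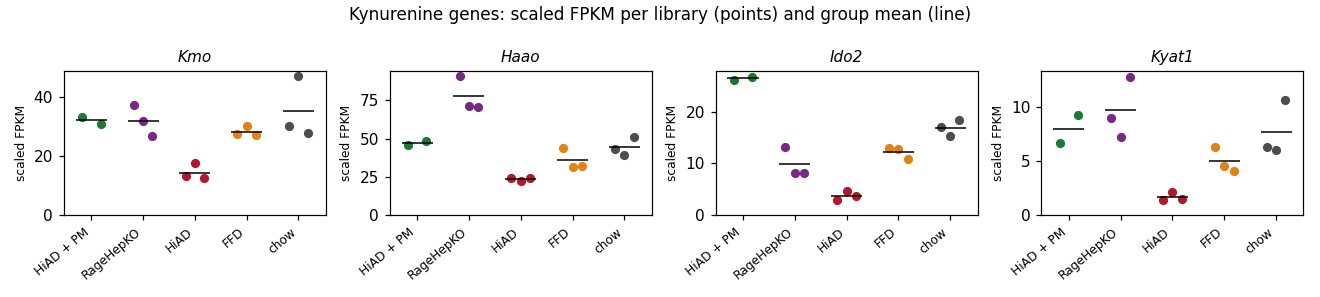
Scaled FPKM of Kmo, Haao, Ido2 and Kyat1 (vertical axes from 0) for each library as a point and each group mean as a line, with HiAD + PM, RageHepKO, HiAD, FFD and chow from left to right. The 3 HiAD libraries are the lowest in each panel, at 12.3 to 17.4 for Kmo and 22.1 to 24.0 for Haao.

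Among the marker lists of other liver cell types, only that of Kupffer cells and macrophages was lowest in HiAD, as these genes were. The Kupffer cell and macrophage list (7 genes, all tested) summed to 79.5 to 100.1 scaled FPKM in HiAD + PM, 75.4 to 161 in RageHepKO, 30.7 to 34.5 in HiAD, 66.6 to 269 in FFD and 42.9 to 114 in chow. Of its 7 genes, 2 were higher with PM (3.31% of all tested genes) and 3 higher in RageHepKO (15.7%). In HiAD against FFD 2 were lower (Clec4f and Timd4, 1.45% of all tested genes), and none passed in HiAD against chow. The cholangiocyte list (3 of 6 tested, Cftr near 0 throughout) ran the other way, at 15.3 to 22.1 in HiAD + PM, 18 to 36.4 in RageHepKO, 91.0 to 145 in HiAD, 21.3 to 30.1 in FFD and 29.9 to 31.9 in chow. Stellate cell and fibroblast markers summed to 22.3 to 25.0 in HiAD + PM, 30.2 to 36.6 in RageHepKO, 41.1 to 55.5 in HiAD, 24.7 to 27.7 in FFD and 16.1 to 29.8 in chow. Endothelial markers summed to 13.7 to 16.5 in HiAD + PM, 21.3 to 31.9 in RageHepKO, 19.4 to 32.8 in HiAD, 16.3 to 26.9 in FFD and 23.9 to 26.7 in chow. Lymphocyte and neutrophil markers summed to 2.34 to 2.71, 5.2 to 15.1, 4.45 to 16.5, 1.97 to 114 and 1.76 to 59.3 in the same order. The hepatocyte list summed to 19030 to 20460 in HiAD + PM, 25460 to 37250 in RageHepKO, 25040 to 28070 in HiAD, 17240 to 22640 in FFD and 23200 to 35060 in chow, and so did not share the low HiAD values of Kmo and Haao. In bulk tissue fewer cells of a type and less RNA per cell cannot be told apart, and the part of cell composition in these results was not tested.

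In the methionine cycle Mat1a was lower with PM and in RageHepKO. Mat1a (chr14:41105035-41124412) encodes the liver form of methionine adenosyltransferase. It had 765 and 725 scaled FPKM in HiAD + PM, 960.5, 1576 and 1543 in RageHepKO, 3702, 3670 and 4754 in HiAD, 2373, 2550 and 2044 in FFD and 2122, 5858 and 1355 in chow. Both PM libraries were the lowest of the 14, every RageHepKO library was below every HiAD library, and the chow libraries spanned the whole HiAD range. The log2 fold change was -2.43 ± 0.48, adjusted p = 0.0102 with PM and -1.60 ± 0.43, adjusted p = 0.0139 in RageHepKO, while HiAD against FFD (0.79 ± 0.43, adjusted p = 0.391) did not pass although the groups did not overlap. The PM call was lost without PM replicate 18 (0.0898) or 19 (0.122), and the RageHepKO call without HiAD replicate 3 (0.0505). The summed hepatocyte markers were likewise below HiAD in HiAD + PM (19030 to 20460, against 25040 to 28070), though none of the 9 tested markers passed. In RageHepKO 1 of the 9 was higher and 3 were lower, where 15.7% and 17.7% of all tested genes were. Their part in the changes of the members was not tested.

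Ahcy, which splits S-adenosylhomocysteine left after methyl transfer, had 325 and 311 scaled FPKM in HiAD + PM, 556, 592 and 527 in RageHepKO, 592, 656 and 743 in HiAD, 639, 362 and 403 in FFD and 630.4, 914 and 550.4 in chow. The PM libraries were the 2 lowest and did not overlap HiAD (-1.05 ± 0.29, adjusted p = 0.0495). This call stood at the threshold and was lost in 14 of 26 alternatives, among them leaving out PM replicate 18 (0.249) or 19 (0.323), any HiAD library (0.0864, 0.103 and 0.144 for replicates 1, 2 and 3), chow replicate 1 (0.0655), RageHepKO replicate 20 (0.0615) or 21 (0.0626) or FFD replicate 31 (0.0572) or 32 (0.0692).

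The betaine branch, which remethylates homocysteine, did not pass. Bhmt had 292 and 382 scaled FPKM in HiAD + PM, 1077, 101 and 82.5 in RageHepKO, 761, 1262 and 952 in HiAD, 482, 192 and 609 in FFD and 1394, 889.8 and 253 in chow. The level in RageHepKO replicate 19 was about that of the HiAD libraries while replicates 20 and 21 were below every other library, and the comparison gave -2.22 ± 0.87, adjusted p = 0.0676. Without RageHepKO replicate 19 and chow replicate 2, it was -3.40 ± 0.65 (adjusted p = 0.00324). Its paralogue Bhmt2, which uses S-methylmethionine, had 77.5 and 80.6 in HiAD + PM, 98.2, 82.3 and 68.3 in RageHepKO, 91.6, 120.1 and 111 in HiAD, 101, 77.9 and 83.8 in FFD and 117, 88.7 and 69.9 in chow, a narrower spread with no call. Gnmt, which consumes excess S-adenosylmethionine, and the betaine-derived glycine steps Dmgdh and Sardh did not pass either, with log2 fold changes of 0.26, -0.49 and -0.07 for PM and -0.98, -0.36 and 0.03 for RageHepKO. Of 15 other tested genes of methionine, choline and cysteine metabolism, 3 were lower in RageHepKO (Chdh -0.80, Suox -1.60 and Mat2a -0.75), where 17.7% of all tested genes were. None passed elsewhere. Mat2a is the methionine adenosyltransferase of tissues other than liver and of dividing hepatocytes.

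Among the urea cycle genes Arg1 was lower with PM and Cps1 lower in RageHepKO. Cps1 (chr1:67123026-67231259) makes carbamoyl phosphate from ammonia, the entry to the cycle. It had 311 and 331 scaled FPKM in HiAD + PM, 49.7, 179 and 140.3 in RageHepKO, 479, 692 and 810.2 in HiAD, 301, 296 and 216 in FFD and 354, 1060 and 204 in chow. The 3 RageHepKO libraries were the lowest 3 of 14. The log2 fold change was -2.57 ± 0.55, adjusted p = 0.00459 in RageHepKO, and it passed in all 25 alternatives, at -2.02 without RageHepKO replicate 19 and chow replicate 2. HiAD lay above FFD without overlap (1.26 ± 0.55, adjusted p = 0.274), and above HiAD + PM without overlap (-1.01 ± 0.61, adjusted p = 0.408), and neither passed with all libraries.

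Arg1 (chr10:24915221-24927484), the arginase that releases urea, had 304 and 241 scaled FPKM in HiAD + PM, 474, 420.4 and 396 in RageHepKO, 614, 650.4 and 499.6 in HiAD, 402, 391 and 248 in FFD and 508, 889.9 and 541 in chow. HiAD + PM was below HiAD without overlap (-1.11 ± 0.30, adjusted p = 0.0482). This call too was lost in 14 of 26 alternatives, among them leaving out PM replicate 18 (0.166) or 19 (0.4), HiAD replicate 1 (0.125), 2 (0.123) or 3 (0.0787), chow replicate 1 (0.054) or 3 (0.0513), RageHepKO replicate 20 (0.061) or 21 (0.0605), or FFD replicate 28 (0.063) or 31 (0.0641).

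The 6 other genes of the cycle and its carriers did not pass. Log2 fold changes ranged from -1.33 (Asl) to 0.50 (Otc) with PM, and from -1.08 (the ornithine carrier Slc25a15) to 0.85 (Otc) in RageHepKO. Otc, which joins ornithine and carbamoyl phosphate, thus had a positive estimate where Cps1 was lower (0.85 ± 0.31, adjusted p = 0.0541 in RageHepKO), and it was called in 5 of 25 alternatives. Its adjusted p was 0.0323 without chow replicate 2, 0.182 without RageHepKO replicate 19, its highest library, and 0.0978 without both. Ass1, which adds aspartate, Nags, which makes the activator of CPS1, and the aspartate carrier Slc25a13 lay between these values in both comparisons. Of 13 other tested genes of the urea cycle and of glutamine handling, 2 were higher with PM (3.31% of all tested genes). In RageHepKO 3 were higher and 2 lower (15.7% and 17.7%). In HiAD against FFD 1 was lower (1.45%) and in HiAD against chow 1 was lower (1.82%). Car5a, the mitochondrial carbonic anhydrase that supplies bicarbonate to CPS1, was higher with PM (2.06) and lower in HiAD against FFD (-1.68). The glutamine carrier Slc38a3 was higher with PM (1.42) and in RageHepKO (1.34), and the ornithine aminotransferase Oat was higher in RageHepKO (1.10) and lower in HiAD against chow (-1.58). The cationic amino acid carrier Slc7a2 (-1.88) and the carrier Slc38a4 (-1.05) were lower in RageHepKO.

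Of the 4 aminotransferases of alanine and aspartate, Gpt2 passed in both PM and RageHepKO. Gpt2 (chr8:85492576-85527560), the mitochondrial alanine aminotransferase, had 58.2 and 53.3 scaled FPKM in HiAD + PM, 93.04, 83.6 and 71.2 in RageHepKO, 151, 239 and 187 in HiAD, 98, 74.3 and 72.8 in FFD and 153, 219 and 78.7 in chow. The HiAD values lay above all values of HiAD + PM, RageHepKO and FFD, and overlapped chow. The log2 fold change was -1.75 ± 0.36, adjusted p = 0.0123 with PM, -1.19 ± 0.32, adjusted p = 0.0135 in RageHepKO and 1.22 ± 0.32, adjusted p = 0.0627 in HiAD against FFD, which did not pass. The PM call was lost without PM replicate 18 (0.092) or 19 (0.14), and the RageHepKO call without HiAD replicate 2 (0.0546). Its cytosolic isozyme Gpt had 40.9 and 45.2 in HiAD + PM, 55.99, 47.7 and 59.8 in RageHepKO, 51.2, 57.3 and 37.4 in HiAD, 52.8, 32.7 and 34.7 in FFD and 74.7, 31.4 and 45.6 in chow, overlapping ranges with no call.

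Got1, the cytosolic aspartate aminotransferase, had 30.2 and 17.9 scaled FPKM in HiAD + PM, 10.1, 41.1 and 34.2 in RageHepKO, 88.2, 86 and 109 in HiAD, 53.2, 49.8 and 26.7 in FFD and 50.2, 322 and 31 in chow. HiAD was above HiAD + PM, RageHepKO and FFD without overlap, and chow replicate 2 was above all. No comparison passed (-1.97 ± 0.81, adjusted p = 0.192 with PM, -1.90 ± 0.72, adjusted p = 0.06 in RageHepKO). Without chow replicate 2 and RageHepKO replicate 19, the comparisons gave -1.97 ± 0.33 (adjusted p = 0.00325) with PM, -1.30 ± 0.33 (0.011) in RageHepKO and 1.16 ± 0.29 (0.0356) in HiAD against FFD. The mitochondrial Got2 had 119 and 117 in HiAD + PM, 138, 182 and 161 in RageHepKO, 137, 141 and 207 in HiAD, 117, 114 and 145 in FFD and 149, 123 and 141 in chow, with no call. Of the 10 members whose enzymes use pyridoxal phosphate, Gpt2 was the only one called with PM, where 3.31% and 3.14% of all tested genes were higher and lower, and the median log2 fold change of the 10 was -0.77. In RageHepKO 1 of the 10 was higher and 3 were lower, where 15.7% and 17.7% of all tested genes were, with a median of -0.49. Both comparisons use the same HiAD libraries, and whether use of this cofactor bears on these values was not tested.

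**Figure D3:**
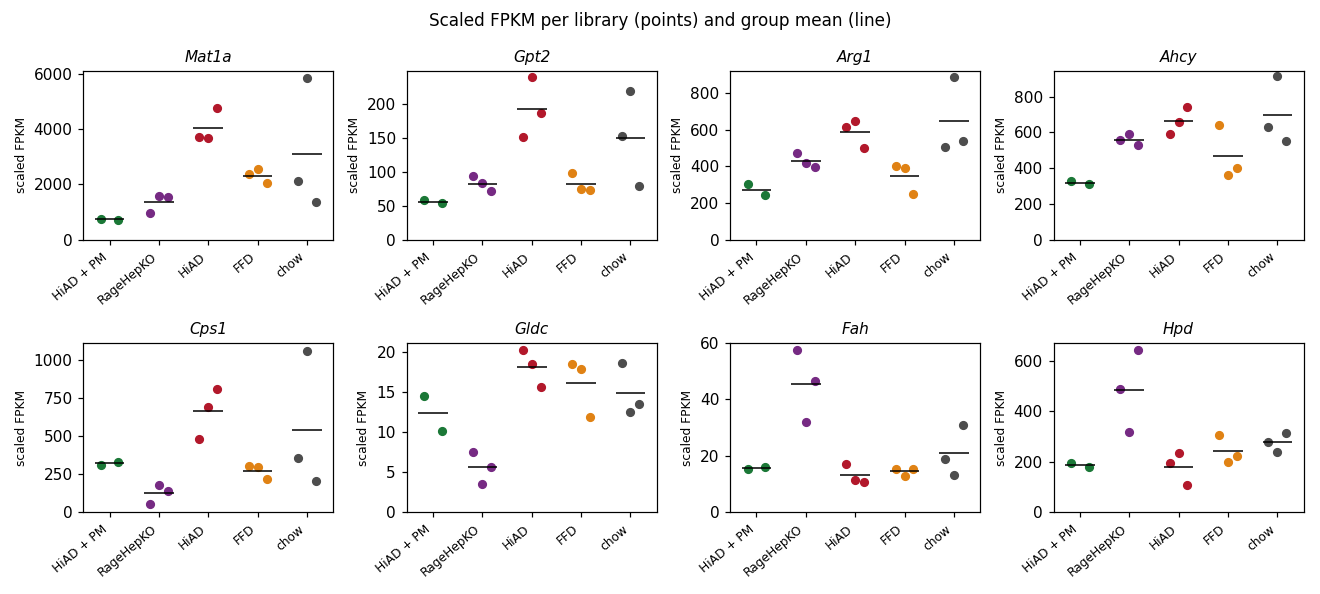
Scaled FPKM of 8 called members (vertical axes from 0) for each library as a point and each group mean as a line, with HiAD + PM, RageHepKO, HiAD, FFD and chow from left to right. The PM libraries lie below HiAD for Mat1a, Gpt2, Arg1 and Ahcy, and the RageHepKO libraries lie below HiAD for Cps1 and Gldc and above it for Fah and Hpd.

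In tyrosine breakdown Tat was lower and Hpd and Fah were higher in RageHepKO. Tat, the pyridoxal phosphate enzyme of the first step, had 232 and 281 scaled FPKM in HiAD + PM, 60.03, 174 and 174 in RageHepKO, 653, 773 and 417 in HiAD, 261, 420.3 and 233 in FFD and 311, 2901 and 485 in chow. The RageHepKO libraries were below all others, and the log2 fold change was -2.27 ± 0.68, adjusted p = 0.023. That call was lost without HiAD replicate 1 (0.0603) or 2 (0.0716) or RageHepKO replicate 19 (0.0842), and in the fit without the filter (0.0705). Without both RageHepKO replicate 19 and chow replicate 2 the log2 fold change was -1.77 ± 0.32 (0.00229). Hpd, the dioxygenase that makes homogentisate, had 193 and 178 in HiAD + PM, 489, 319 and 645 in RageHepKO, 194, 234 and 107 in HiAD, 307, 198 and 222 in FFD and 278, 237 and 313 in chow. RageHepKO held the 3 highest values (1.45 ± 0.32, adjusted p = 0.00565). Fah, the last step, had 15.1 and 16.1 in HiAD + PM, 57.7, 31.8 and 46.5 in RageHepKO, 16.9, 11.3 and 10.6 in HiAD, 15.1, 12.6 and 15.4 in FFD and 18.9, 13.2 and 30.8 in chow, again with the 3 highest values in RageHepKO (1.72 ± 0.29, adjusted p = 0.00153). Without RageHepKO replicate 19 and chow replicate 2, Hpd gave 1.41 ± 0.36 (adjusted p = 0.0119) and Fah 1.53 ± 0.255 (0.00155). Hgd, between Hpd and Fah, gave 0.63 ± 0.30, adjusted p = 0.117 with all libraries, which did not pass. None of the 4 passed with PM or between diets.

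Of 4 members of lysine and proline breakdown, 1 was higher and 1 lower in RageHepKO, where 15.7% and 17.7% of all tested genes were. None passed elsewhere. Prodh2, the hydroxyproline dehydrogenase, had 35.4 and 38.1 scaled FPKM in HiAD + PM, 79.7, 48.5 and 63.8 in RageHepKO, 26.02, 22.2 and 21.5 in HiAD, 51.5, 27.8 and 25.1 in FFD and 36.3, 23.5 and 34.7 in chow, and its log2 fold change in RageHepKO was 1.40 ± 0.28, adjusted p = 0.0031. Without RageHepKO replicate 19 and chow replicate 2, Prodh2 gave 1.23 ± 0.27 (adjusted p = 0.00556). Its relative Prodh, which oxidizes proline, had 11.5 and 10.98 in HiAD + PM, 16.7, 7.28 and 13.8 in RageHepKO, 8.7, 11.4 and 7.29 in HiAD, 13.2, 6.62 and 4.31 in FFD and 15.5, 9.73 and 12.7 in chow, and the RageHepKO and HiAD libraries overlapped (0.37 ± 0.35, adjusted p = 0.438). Aldh4a1, which receives the product of both, had 79.8 and 90.8 in HiAD + PM, 41.8, 37.03 and 45.5 in RageHepKO, 68.02, 65.8 and 64.1 in HiAD, 92.4, 68.6 and 83.6 in FFD and 63.3, 45.4 and 35.1 in chow. The RageHepKO libraries were below HiAD (-0.66 ± 0.21, adjusted p = 0.0324). The Aldh4a1 call was lost in 9 of 25 alternatives. Among them were the fits without HiAD replicate 1 (0.0806), 2 (0.0748) or 3 (0.0665) or RageHepKO replicate 19 (0.0529) or 20 (0.0845). It was also lost without the filter (0.063), with the compared groups alone (0.0502) and with sample quality weights (0.062). A stretch of 32.5% of its exon length is annotated to a second gene, Gm21969, on the same strand, so that its level is uncertain. Aass, the first enzyme of lysine breakdown, gave -1.15 ± 0.35, adjusted p = 0.0789 with PM and 0.91 ± 0.32, adjusted p = 0.157 in HiAD against FFD, without a call.

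In glycine and serine turnover Gldc was lower and Shmt1 higher in RageHepKO. Gldc, the decarboxylase of the glycine cleavage system, had 14.5 and 10.2 scaled FPKM in HiAD + PM, 7.55, 3.52 and 5.62 in RageHepKO, 20.3, 18.5 and 15.7 in HiAD, 18.5, 17.96 and 11.9 in FFD and 18.6, 12.5 and 13.6 in chow. The RageHepKO libraries were the lowest 3 of 14 (-1.59 ± 0.26, adjusted p = 0.00128), and the call passed in all 25 alternatives. Its partners Amt (-0.51 ± 0.19, adjusted p = 0.0534) and Gcsh (0.13 ± 0.21, adjusted p = 0.665) did not pass. Shmt1, the cytosolic serine hydroxymethyltransferase, had 23.4 and 27.4 in HiAD + PM, 43.9, 39.9 and 33.3 in RageHepKO, 20.7, 19.1 and 27.8 in HiAD, 35.02, 28.6 and 35.4 in FFD and 24.96, 19.3 and 29.7 in chow, with a log2 fold change of 0.77 ± 0.21, adjusted p = 0.0139 in RageHepKO that was lost without HiAD replicate 2 (0.0569), with FPKM as deposited (0.152) and with the total of nuclear-encoded genes (0.223), where it was as small as 0.36. Without RageHepKO replicate 19 and chow replicate 2, Shmt1 gave 0.69 ± 0.195 (adjusted p = 0.0191) in RageHepKO. Sdsl, a serine dehydratase-like enzyme, gave 0.25 ± 0.39, adjusted p = 0.654 in RageHepKO and -1.01 ± 0.44, adjusted p = 0.214 with PM. Of 13 other tested genes of lysine, hydroxyproline, glycine and serine breakdown, 5 were higher in RageHepKO, among them the glyoxylate enzymes Grhpr (1.24) and Agxt (1.03), Gcdh of lysine breakdown (0.81) and Pipox (0.91), and 1 was lower in HiAD against chow (Shmt2, -0.94). Of all tested genes, 15.7% were higher in RageHepKO and 1.82% lower in HiAD against chow.

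The branched-chain and cysteine members did not pass in any comparison. Bckdha, the E1 alpha subunit of the branched-chain ketoacid dehydrogenase, had 20.96 and 27.8 scaled FPKM in HiAD + PM, 96.05, 54.97 and 25.98 in RageHepKO, 23.8, 16.8 and 36.4 in HiAD, 11.3, 18.2 and 31.8 in FFD and 16.01, 23.6 and 55.8 in chow. Its partner subunit Bckdhb had 0.294 and 0.307 in HiAD + PM, 0.748, 0.772 and 0.461 in RageHepKO, 0.554, 0.379 and 0.892 in HiAD, 0.579, 0.347 and 0.36 in FFD and 0.318, 0.422 and 0.411 in chow, below Bckdha on this per-length scale in every library. For Bckdha 61.7% of the exon length is shared with B3gnt8 on the opposite strand, and the sources used here do not say whether fragments were counted by strand. Ivd, Mccc1 and Hibadh of later steps gave log2 fold changes of 0.14, -0.01 and 0.66 in RageHepKO. Cdo1, the cysteine dioxygenase, ranged from 742 to 1465 scaled FPKM over all libraries, and Csad, which makes hypotaurine, gave -1.62 ± 0.55, adjusted p = 0.117 with PM. Of 17 other tested branched-chain genes, Acadsb was higher with PM (1.03), and in RageHepKO Mcee (1.37) and Acad8 (0.63) were higher and Aldh6a1 (-0.58) lower. Of all tested genes, 3.31% were higher with PM, and 15.7% were higher and 17.7% lower in RageHepKO.

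Regulators and stress genes were read beside the members. Of 13 tested transcription factors and receptors of amino acid breakdown, none passed with PM. In RageHepKO 2 were higher and 6 lower, where 15.7% and 17.7% of all tested genes were. The glucagon receptor Gcgr (1.70) was higher, as was Atf4 (0.94 ± 0.32, adjusted p = 0.0411), the factor of the amino acid shortage response, named after its values were seen. Hnf4a (-1.30), Foxo1 (-1.35) and Ppara (-1.07) had the smallest p among the lower ones. Ppara was also higher in HiAD against chow (0.96). Of 10 tested genes of the amino acid shortage response, 2 were lower in RageHepKO (Slc3a2 -0.93 and Asns -1.26), where 17.7% of all tested genes were. None passed elsewhere.

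In FFD against chow no member passed by limma at the adjusted threshold. At an unadjusted p under 0.05, Aldh4a1 (0.78) was higher and Asl (-1.56), Arg1 (-0.88), Aass (-0.92), Gpt2 (-0.77) and Ahcy (-0.59) were lower. These are 1 and 5 of 43, where 4.77% and 5.28% of all tested genes were higher and lower at that level. Without chow replicate 2 the log2 fold changes were 0.77 for Aldh4a1, -1.02 for Asl, -0.63 for Arg1, -0.52 for Aass, -0.43 for Gpt2 and -0.38 for Ahcy, and the last 3 no longer met that level. With sample quality weights 3 members were lower, and 2.74% of all genes.

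Chow replicate 2 stood apart from its group, in members of several roles. Acmsd stood at 83.4 scaled FPKM in that library, 17.7 times the next highest of the 14. For Kynu the ratio was 3.81 (70.9 scaled FPKM), for Tat 3.75 (2901), for Got1 2.95 (322.5), for the ornithine carrier Slc25a15 2.21 (258) and for Asl 2.06 (90.4). Igfbp1, a fasting- and cAMP-induced gene chosen after its values were seen, was at 4537 in this library and at 0.427 to 157 in the others. The 16 members highest in this library include 6 of the 8 genes of the urea cycle and its carriers and 4 of the 5 of tryptophan and kynurenine breakdown, but 0 of the 5 of branched-chain breakdown. The same count was not made over all genes, so these shares are not shown to be particular to the members. This is 1 library, no test was made, and whether feeding state bears on its values was not tested.

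**Figure D4:**
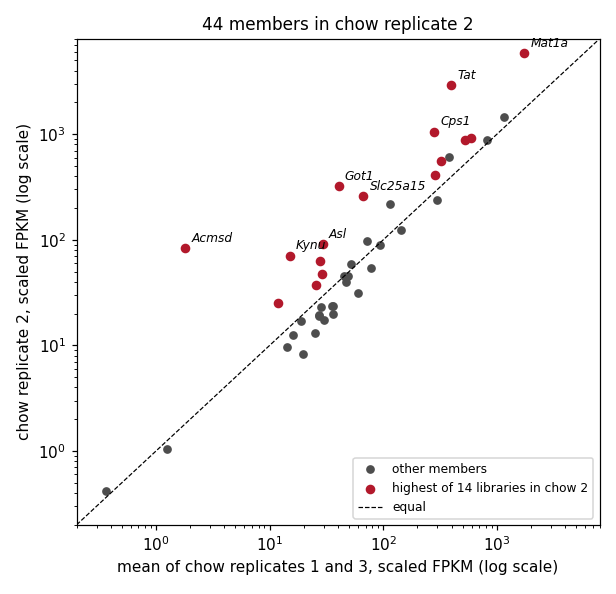
Scaled FPKM of the 44 members in chow replicate 2 (vertical, log scale) against the mean of chow replicates 1 and 3 (horizontal, log scale), with a dashed line of equality; red points are the 16 members whose highest value of 14 libraries is in chow replicate 2. Acmsd stands farthest above the line, at 83.4 in replicate 2.

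All groups share 1 estimate of the spread, so a library that stands apart bears on comparisons it is no part of. Leaving out chow replicate 2 and RageHepKO replicate 19, an alternative added after seeing the data, changed calls in 4 of the 5 comparisons, all but FFD against chow. For Mat1a in HiAD against FFD the log2 fold change was 0.79 in both fits, with an SE of 0.20 without them and 0.43 with all libraries. The share of all genes called moved as well. With it 2 members were higher and 12 lower with PM, where 6.66% and 6.38% of all genes in that fit were higher and lower, adding Cps1 (-1.01), Got1, Asl (-1.33), Aass (-1.15), Tdo2 (-1.05), Sdsl (-1.01), Csad (-1.62) and Tat (-1.22) to the 4 lower ones. In RageHepKO 8 were higher and 11 lower (16.7% and 20.2% of all genes), adding Hgd (0.99) and Sdsl (0.71) to the higher ones and Bhmt, Got1, Acmsd (-0.89), Slc25a15 (-0.84) and Nags (-0.56) to the lower ones. In HiAD against FFD, where 4.38% and 3.61% of all genes were higher and lower, 7 were higher (Cps1 1.26, Asl 1.22, Gpt2 1.22, Got1 1.16, Aass 0.91, Mat1a 0.79 and Arg1 0.78) and 2 lower (Kmo and Haao). In HiAD against chow, where 7.56% and 5.98% of all genes were higher and lower, 3 were higher (Cps1 1.26, Mat1a 1.24 and Got1 1.23) and 3 lower (Kmo, Haao and Fah). Without chow replicate 2 alone, 3 were higher and 1 lower in HiAD against FFD (Asl, Aass and Gpt2 higher, Kmo lower), 1 was higher in HiAD against chow (Mat1a), 7 were lower with PM, and in RageHepKO 7 were higher and 9 lower, with Otc among the higher ones. In that fit 2.51% and 2.08% of all genes were higher and lower in HiAD against FFD, 4.22% and 3.14% in HiAD against chow, 4.36% and 4.1% with PM, and 17.4% and 19.8% in RageHepKO.

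All 6 calls with PM depend on having 2 PM libraries. Without replicate 18 or 19 that group holds 1 library, and these calls were lost. Calls were then fewer among all tested genes as well. The 4 lower calls with PM became 2 without any 1 of chow replicate 1, HiAD replicates 1, 2 and 3, RageHepKO replicates 20 and 21 and FFD replicate 31. In those fits 1.54% (HiAD replicate 3) to 3.36% (RageHepKO replicate 20) of all genes were lower, against 3.14% with all libraries. The 6 lower calls in RageHepKO became 3 without HiAD replicate 2, where 13.3% of all genes were lower, against 17.7% with all libraries. For RageHepKO the scaling matters. With FPKM as deposited 5 members were higher and 17 lower and with the total of nuclear-encoded genes 5 and 19, where the median log2 fold change of all genes was -0.26 and -0.30. Over all genes 952 were higher and 3371 lower, and 931 and 3733, against 1900 and 2144 with the scaling used. Exon length moved with this comparison too. The 6 lower members had a median exon length of 5231 bases and the 6 higher ones 3171, and over all tested genes the medians were 4564.5 for lower and 2658 for higher. With the length trend removed, all RageHepKO calls but Aldh4a1 (adjusted p = 0.0644) still passed.

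**Figure D5:**
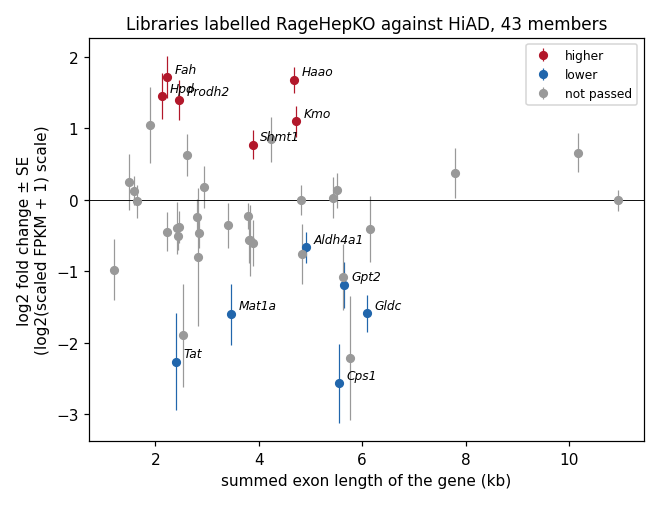
Log2 fold change with SE of the 43 tested members in libraries labelled RageHepKO against HiAD (vertical, log2(scaled FPKM + 1) scale) against the summed exon length of each gene in kilobases (horizontal); red is higher, blue lower and grey not passed by limma. Pearson's r over the 43 members was -0.116, and lower members include long genes such as Gldc and short ones such as Tat.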

How the data were processed

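RNA from whole mouse liver was measured in 14 libraries made with a SMARTER mRNA-Seq kit. According to the methods the authors mapped reads to GRCm38 with GENCODE M18 annotation and Drop-seq tools, which yielded counts of molecular identifiers. The table they deposited is described as raw counts, but its values are not whole numbers and, multiplied by exon length, sum to 901152 to 993429 per library, so they were treated as FPKM deposited by the authors. The unit is inferred from the values and conflicts with the counts the methods describe. No step that would make FPKM values is described there. Columns were matched to samples by name, with 0 columns left out.

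Of 55583 entries, 27 named by dates and 129 identical repeats were removed. Each library was divided by its trimmed mean log ratio to the average library (30% cut at each end, 6522 genes of at least 1 FPKM throughout). Genes reaching a scaled FPKM of 1 in 2 or more libraries were compared as log2(scaled FPKM + 1), a pseudocount of 1, with limma 3.58.1 in R 4.3.3 (trend and robust estimates, 5 group means, all libraries, Benjamini-Hochberg adjustment per comparison, threshold 0.05). This fit replaces the voom fit on counts of the methods, which needs counts. Exon lengths and positions came from GENCODE M21 (GRCm38), promoters from RefSeq. Precision rests on the spread between libraries, since depth is only estimated. 

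The members and the gene lists were chosen with earlier results of these data known. Any member may be named, values in every library are given for members past the threshold in at least 1 comparison and for 5 isozyme or subunit pairs, and up to 4 genes of each pathway list per comparison that passed, smallest p first. The values of 1 gene of a pathway list are not reported here. Tdo2, Igfbp1 and the 11-gene kynurenine grouping were added after values were seen, and Ager as the check of the label. Alternatives were the filter, pseudocount, scaling, sample quality weights, the compared groups alone, a replicate block for HiAD and chow, and leaving out libraries. Leaving out chow replicate 2 with RageHepKO replicate 19, and removing an exon length trend (loess span 0.3, 99.4% of tested genes had a length), were chosen after seeing the data.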

Additional observations from a re-analysis of the deposited data

How the results depend on the processing

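Counts of members called depended on settings as follows, higher then lower, with the percent of all genes called in the same fit. For HiAD against FFD (0 and 1) the lower count was 0 without the filter (0.338%), the counts were 1 and 0 with the total of nuclear-encoded genes (2.47% and 1.3%), 5 and 3 with sample quality weights (5.21% and 4.19%) and 7 and 2 without chow replicate 2 and RageHepKO replicate 19 (4.38% and 3.61%), and 3 were higher with the compared groups alone (3.18%). For HiAD against chow (0 and 2) they were 1 and 4 with weights (10.5% and 9.17%), 3 higher without those libraries (7.56%), and 0 lower with the compared groups alone (110 of 10820 genes). For FFD against chow (0 and 0) weights gave 3 lower (2.74%). For HiAD + PM against HiAD (2 and 4) the lower count was 2 without the filter (0.98%) and 2 with FPKM as deposited (2.67%), 13 with the compared groups alone (6.5%) and 12 without the 2 libraries (6.38%), and weights gave 4 and 12 (13% and 12.7%). For RageHepKO against HiAD (6 and 6) the lower count was 17 with FPKM as deposited (27.9%), 19 with the nuclear total (30.8%) and 11 without the 2 libraries (20.2%). Leaving out 1 library at a time gave 0 to 3 higher and 0 to 1 lower (HiAD against FFD), 0 to 1 and 1 to 2 (HiAD against chow), 0 and 0 (FFD against chow), 0 to 2 and 0 to 7 (PM) and 5 to 9 and 3 to 9 (RageHepKO). Of all genes, these fits called 0.586 to 2.51% higher and 0.591 to 2.08% lower in HiAD against FFD. In HiAD against chow the shares were 1.01 to 4.23% and 0.719 to 3.14%. In FFD against chow they were at most 0.0748% and 0.125%. With both PM libraries kept they were 1.74 to 4.56% and 1.54 to 4.27% for PM. For RageHepKO they were 10.8 to 17.4% and 12.5 to 19.8%. The cause of these changes was not tested, and no called member changed direction in any alternative. Chow and HiAD share replicate numbers. With the replicate number as a block in a fit of these groups alone, 0 members were lower in HiAD against chow, as in the fit of these groups without the block (adjusted p = 0.103 for Kmo and 0.181 for Haao with it), and the deviations of same-numbered libraries correlated at 0.0359, -0.0868 and -0.0537, so the numbers do not pair the libraries. With 2 or 3 libraries a group, values rest on a spread shared over all groups, and Bckdhb, at an estimated 5.68 to 16.2 fragments per library, was not tested.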
